A study of Mus musculus with 16 samples.

Results

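The transcripts of 38 genes of autophagy were followed in mouse skeletal muscle that lacked Bin1, with and without an antisense oligonucleotide against Dnm2. The genes were a given list of symbols and were found by their Ensembl identifiers among the 29730 genes of the table. All 38 were found, and all 38 passed the filter on low counts. They were grouped by role into 5 ATG8 proteins, 6 selective receptors, 5 genes of the ULK kinase complex, 5 genes of the class III PI3-kinase complexes, 5 genes of ATG9 vesicles, lipid transfer and PtdIns3P effectors, 10 genes of the conjugation of ATG8 and ATG12, the transport adaptor Fyco1 and the transcription factor Tfeb.

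RNA came from the tibialis anterior, which lifts the foot, in male C57BL/6N mice aged 7 weeks. The 4 groups had 4 samples each: wild-type mice given PBS (WT_PBS), wild-type mice given ASO1 (WT_ASO), Bin1mck-/- mice given PBS (KO_PBS) and Bin1mck-/- mice given ASO1 (KO_ASO). Antisense oligonucleotides such as ASO1 are made to bind 1 messenger RNA and reduce it, and Dnm2, the target named by the series, encodes dynamin 2, a GTPase that cuts membranes. Bin1 encodes amphiphysin 2, which binds and bends membranes. The sources used here do not give the deleted part of Bin1, the cells that lost it, the dose or the schedule. The libraries, of messenger RNA and prepared with strand information, held 27591900 to 40862854 counts each. Levels are given as CPM, counts per 1000000 counts of the scaled library. Bin1 stood at 463 to 619.8 CPM in the wild-type samples and at 31.7 to 47.7 CPM in the knockout samples, and Dnm2 at 50.2 to 67.7 CPM in the PBS groups and 20.7 to 31.1 CPM in the ASO1 groups, so neither gene's groups overlapped. The 10 markers of the muscle fibre summed to 140900 to 247810 CPM. The samples are whole muscle, in which fewer cells of a type and less RNA per cell cannot be told apart.

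In autophagy, a double membrane grows around part of the cytoplasm, closes into an autophagosome and fuses with the lysosome, which degrades what was enclosed. The ULK kinase complex starts the process, a class III PI3-kinase marks the growing membrane with PtdIns3P, and ATG9 vesicles and lipid transfer proteins feed it. A conjugation system then attaches small ubiquitin-like proteins, the LC3 and GABARAP proteins of the ATG8 family, to the membrane, where receptors such as p62 bring in cargo. Skeletal muscle relies on this turnover for its mitochondria and proteins, and it is known to raise the transcripts of several of these genes when nutrients are short or a nerve is cut. Levels of transcripts do not measure how much material passes through the pathway.

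The genes covered a wide range of levels in the muscle of WT_PBS mice. Per length, as CPM per kilobase of annotated exon (RPKM), the most abundant transcript was Sqstm1, which encodes the receptor p62, with 138 ± 14.1 RPKM (SD, n = 4), followed by Map1lc3a, the gene of LC3A, with 118 ± 12.3. Gabarap followed with 53.7 ± 6.5 and Fyco1, an adaptor that links autophagosomes to kinesin, with 37.7 ± 3.30. The lowest levels were those of Uvrag, a subunit of one of the PI3-kinase complexes, with 1.37 ± 0.0970, and of Atg7, the E1-like enzyme of the conjugation, with 1.43 ± 0.113. Within the ATG8 family, Map1lc3b stood at 13.6 ± 0.426 and Gabarapl2 at 4.15 ± 0.337. The length used mattered for some genes. With the length of the principal transcript in place of all annotated exons, a choice made after seeing the data, Map1lc3b came to 40.4, while Sqstm1, Map1lc3a and Gabarap stayed at ranks 1, 2 and 3.

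**Figure D1:**
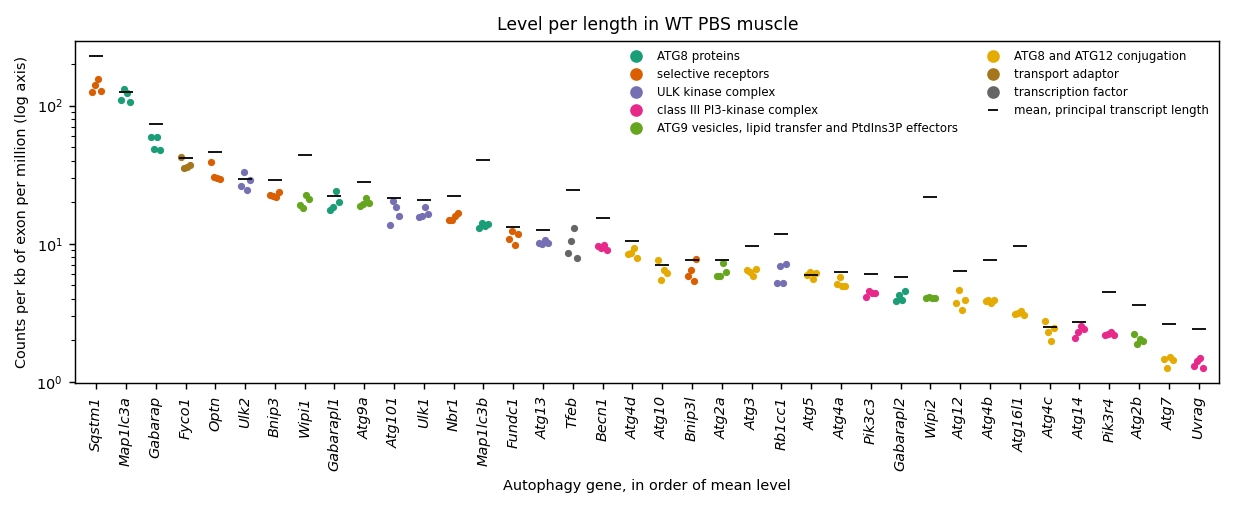
Level of the 38 autophagy genes in the 4 WT_PBS samples, as CPM per kilobase of annotated exon on a log axis. Points are samples coloured by role, and black dashes are the mean computed with the length of the principal transcript. Sqstm1 and Map1lc3a head the order and Uvrag closes it.

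The first comparison asked what the loss of Bin1 did, between KO_PBS and WT_PBS. Map1lc3a, Gabarapl1 and Gabarap of the ATG8 family rose, the receptor gene Nbr1 rose by a smaller step, and Ulk2, a kinase that starts autophagy, fell. In all, 5 of 38 genes passed an adjusted P value of 0.05 by edgeR's quasi-likelihood test, 13.2% of the list, against 12.6% of the 14960 genes tested. The list as a whole was therefore near the background. By direction, 4 of the 38 were higher, against 7.43% of all genes, and 1 was lower, against 5.12%. The log2 fold changes (log2FC) of the list ran from -0.49 to 0.69 with a median of -0.06, beside -0.01 for all genes, and none reached a doubling. Values were on libraries with TMM scaling, a method that takes most genes as unchanged between samples. Of the 38, 14 differences were positive and 24 negative, but 26 were positive and 12 negative with library totals as the sole scaling, under which the median of all genes moved to 0.14. Small differences of either sign are therefore not read as changes.

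Map1lc3a (ENSMUSG00000027602) lies on chromosome 2 from 155276297 to 155278073, on the plus strand of GRCm38. It encodes LC3A, one of the ubiquitin-like proteins that are linked to the autophagosomal membrane. Its level was 129, 157, 145 and 125 CPM in the WT_PBS samples and 219.9, 195, 190.4 and 233 CPM in the KO_PBS samples. Each KO_PBS sample lay above each WT_PBS sample. The rise was 1.51-fold (log2FC 0.59 ± 0.10, SE, adjusted P value 0.00137 by edgeR), with 0.0286 in a two-sided exact permutation test, the smallest P value that 4 samples against 4 allow. The call held under every alternative setting and with each of the 16 samples left out in turn. Leaving out a WT_ASO or KO_ASO sample removed none of the samples compared.

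Gabarapl1 (ENSMUSG00000030161, chromosome 6 from 129533160 to 129542346, plus strand) encodes a member of the GABARAP branch of the same family. It was measured at 35.4, 37.0, 48.4 and 40.1 CPM in WT_PBS and at 72.6, 63.9, 55.5 and 68.0 CPM in KO_PBS. The groups did not overlap, and the rise of 1.62-fold had the largest log2FC of the list, 0.69 ± 0.15 (adjusted P value 0.00611 by edgeR). This call also held in all 23 alternative fits. An annotated non-coding gene on the other strand, 1700101I11Rik, overlaps an exon of Gabarapl1. Its mean count was 4.75 in WT_PBS and 69.2 in KO_PBS, and over all samples it made up 1.48% of the mean count of Gabarapl1. Whether the counting used the strand is not stated in the sources used here.

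Gabarap (ENSMUSG00000018567, chromosome 11 from 69991143 to 69994951, plus strand) gave its name to that branch. Its level was 109.6, 89.6, 109 and 87.7 CPM in WT_PBS and 132, 118, 125 and 125 CPM in KO_PBS. The highest WT_PBS sample lay below the lowest KO_PBS sample. The rise was 1.26-fold (log2FC 0.34 ± 0.08, adjusted P value 0.0148 by edgeR). The call was lost without WT_PBS replicate 2, without WT_PBS replicate 4 or without KO_PBS replicate 1, with adjusted P values by edgeR of 0.0549, 0.0594 and 0.0544.

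The other pair of ATG8 genes did not pass the test. Map1lc3b, the gene of LC3B, the form most often used as a marker of autophagosomes, was at 98.5, 106, 101 and 104 CPM in WT_PBS and at 81.7, 92.5, 88.0 and 103 CPM in KO_PBS. The groups overlapped, and the log2FC was -0.16 ± 0.08 (adjusted P value 0.204 by edgeR). Exons of Map1lc3b overlap Zcchc14 on the other strand, whose mean count was 31.9% of that of Map1lc3b. Gabarapl2 had a log2FC of 0.23 ± 0.13 (adjusted P value 0.273 by edgeR).

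Since all ATG8 genes are counted in the same library, their ratio is free of any scaling factor. The ratio of Map1lc3a counts to Map1lc3b counts was 1.31, 1.49, 1.43 and 1.20 in WT_PBS and 2.69, 2.11, 2.16 and 2.26 in KO_PBS. It was 1.26, 1.38, 1.74 and 1.36 in WT_ASO and 1.42, 1.28, 1.56 and 1.58 in KO_ASO. Every KO_PBS library lay above all 12 others. Against Gabarap, which itself rose, the ratio of Map1lc3a overlapped, with 1.18 to 1.75 in WT_PBS and 1.52 to 1.865 in KO_PBS. The ratio of Gabarapl1 to Gabarapl2 was 3.75 to 5.32 in WT_PBS, 5.32 to 6.84 in KO_PBS and up to 6.18 in KO_ASO, and these groups overlapped as well. Because the genes differ in length, the ratio serves to compare samples and not the amounts of the 2 transcripts. As a share of the counts of the 5 ATG8 genes, Map1lc3a made up 35.6% ± 2.56 (SD, n = 4) in WT_PBS and 41.7% ± 1.30 in KO_PBS. The share was 36.8% ± 3.28 in WT_ASO and 34.4% ± 2.44 in KO_ASO.

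**Figure D2:**
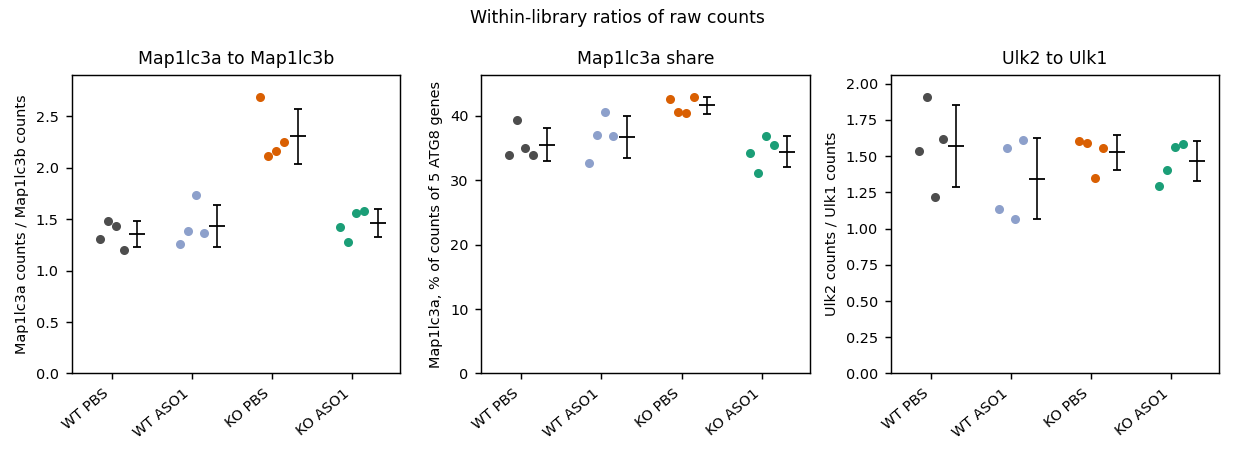
Ratios of raw counts within each library, for Map1lc3a to Map1lc3b, for Map1lc3a as a percentage of the counts of the 5 ATG8 genes, and for Ulk2 to Ulk1. Points are the 4 samples of a group, and the bar beside them is the mean with its SD. The ratio of Map1lc3a to Map1lc3b lay between 2.11 and 2.69 in KO_PBS and reached at most 1.74 in the other groups, while the ratio of Ulk2 to Ulk1 overlapped between the groups.

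Of the 6 selective receptors, which hold cargo and ATG8 proteins at once, 1 passed the test, beside 12.6% of all genes. Nbr1 (ENSMUSG00000017119, chromosome 11 from 101552149 to 101581951, plus strand), a receptor for ubiquitinated cargo related to p62, was at 102, 102, 109 and 114 CPM in WT_PBS and 132, 119.8, 129.9 and 133 CPM in KO_PBS. The groups did not overlap, and the rise was 1.21-fold (log2FC 0.27 ± 0.08, adjusted P value 0.0367 by edgeR). Of the 5 calls it was lost in the most alternative fits. Without a filter on low counts the adjusted P value by edgeR was 0.0913. It was 0.0877, 0.0995 and 0.0604 without WT_PBS replicates 1, 2 and 3, and 0.0985, 0.0752 and 0.0756 without KO_PBS replicates 1, 3 and 4. Sqstm1 was at 421, 476, 524 and 429.8 CPM in WT_PBS and 409, 493, 521 and 475 CPM in KO_PBS. These ranges overlapped, and the 95% confidence interval of its log2FC, 0.04, ran from -0.21 to 0.28. Optn, an ubiquitin-binding receptor, and the mitochondrial receptors Bnip3, Bnip3l and Fundc1 had log2FC between -0.19 and -0.05, none with an adjusted P value under 0.05.

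In the ULK kinase complex, which receives signals of energy and nutrient supply, 1 of 5 genes passed the test, beside 12.6% of all genes. Ulk2 (ENSMUSG00000004798, chromosome 11 from 61775649 to 61855073, minus strand) was at 156, 198, 146 and 172 CPM in WT_PBS and 109, 125, 111 and 134 CPM in KO_PBS. No KO_PBS sample reached the lowest WT_PBS sample. The log2FC was -0.49 ± 0.14 (adjusted P value 0.0272 by edgeR), which left 71.3% of the WT_PBS level. With library totals as the sole scaling the log2FC was -0.34 with an adjusted P value of 0.0854 by edgeR, so this call rests on the scaling. It was also lost without WT_PBS replicates 2 or 4 and without KO_PBS replicates 1 or 3, with adjusted P values by edgeR of 0.0884, 0.0655, 0.0906 and 0.0625.

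Ulk1, the paralogue of Ulk2 that encodes the other catalytic subunit, lay just beyond the threshold. It was at 101, 104, 120.3 and 106 CPM in WT_PBS and 68.0, 78.4, 82.0 and 86.3 CPM in KO_PBS. The groups did not overlap, and the log2FC was -0.46 ± 0.15 with an adjusted P value of 0.0532 by edgeR. DESeq2 gave the same log2FC with an adjusted P value of 0.0297, and limma-voom gave 0.0149. The edgeR value passed with the 2 groups fitted alone (0.0116), without WT_ASO replicate 4 (0.0248) and without KO_ASO replicate 4 (0.0206), and it was 0.15 with library totals as the sole scaling. A fit with a replicate block, described at the end, called Ulk1 too. The ratio of Ulk2 to Ulk1 counts was 1.22 to 1.91 in WT_PBS and 1.35 to 1.60 in KO_PBS. The scaffold genes Atg13, Atg101 and Rb1cc1 had log2FC of -0.02, -0.10 and -0.17, none under the threshold.

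The enzymes and membrane factors further along the pathway showed no call as reported, though 3 of them passed in some alternative fits. In the class III PI3-kinase group, Becn1, the regulatory subunit Beclin 1, was at 68.6, 65.6, 69.0 and 63.7 CPM in WT_PBS and 63.7, 70.4, 64.2 and 66.5 CPM in KO_PBS. Its log2FC was -0.01 with a 95% confidence interval from -0.17 to 0.14, the narrow interval of a gene whose samples lay close together. Uvrag had the highest log2FC of that group, 0.30 ± 0.12 (adjusted P value 0.101 by edgeR), and its groups did not overlap. It passed with library totals as the sole scaling, with limma-voom and with the 2 groups fitted alone, with adjusted P values of 0.0119, 0.0292 and 0.0461. Pik3c3, the catalytic subunit, had -0.25 ± 0.11 (adjusted P value 0.162 by edgeR). Of the ATG9 and lipid transfer group, Atg9a, the one membrane-spanning protein of the core machinery, had -0.31 ± 0.12 (adjusted P value 0.0961 by edgeR, 0.0264 by limma-voom). The KO_PBS and WT_PBS samples of these 3 genes did not overlap. Among the 10 conjugation genes the log2FC ran from -0.28 for Atg4d, a protease that trims ATG8 proteins (adjusted P value 0.0545 by edgeR), to 0.17 for Atg7. Atg4d passed with DESeq2 (0.0318), without WT_ASO replicate 3 (0.0433 by edgeR), without KO_PBS replicate 2 (0.0332) and without KO_ASO replicate 4 (0.0479). Uvrag and Atg4d were also called with the replicate block described at the end. Fyco1 had a log2FC of 0.02. Tfeb, a transcription factor that turns on genes of autophagy and lysosomes, was at 48.8, 59.6, 73.5 and 44.9 CPM in WT_PBS and 49.3, 64.7, 62.4 and 51.1 CPM in KO_PBS, with wide overlap and a log2FC of 0.0047. Across the list the groups did not overlap for 13 of 38 genes, beside 20.4% of all genes tested.

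**Figure D3:**
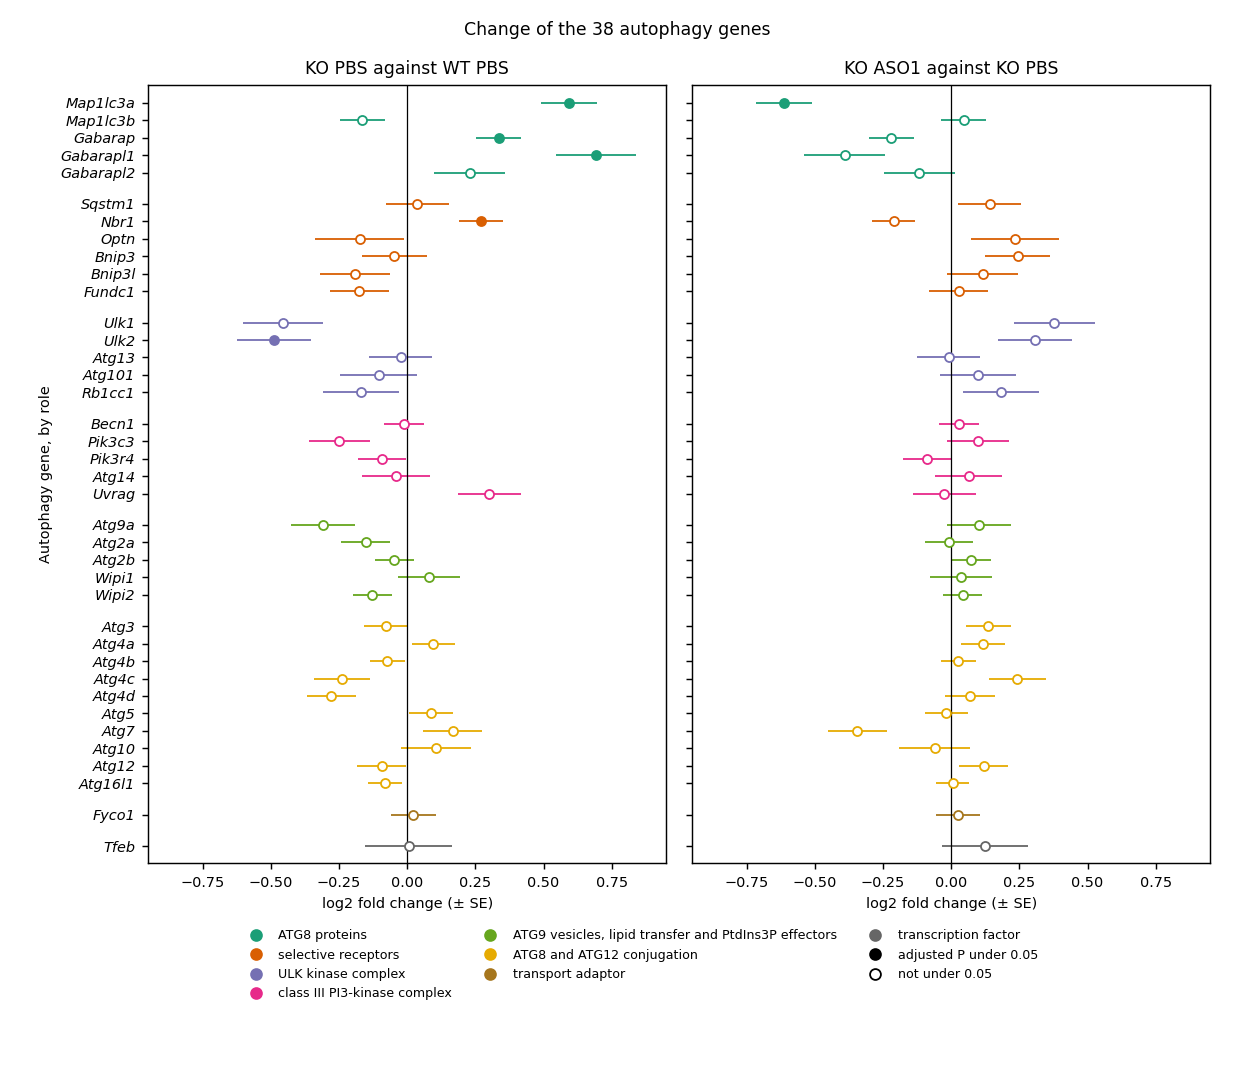
The log2FC of each of the 38 autophagy genes, with its SE, in KO_PBS against WT_PBS (left) and KO_ASO against KO_PBS (right). Colours give the role, and filled points have an adjusted P value under 0.05. On the left 3 of the 5 ATG8 genes, Nbr1 and Ulk2 are filled, beside 12.6% of all genes tested. On the right Map1lc3a alone is filled, beside 3.64% of all genes tested. Both panels use the KO_PBS samples.

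Other cells and states of the tissue moved in the same comparison. Of 14 macrophage markers, 13 were called higher in KO_PBS, beside 7.43% of all genes, and their summed level was 38.1 to 62.5 CPM in WT_PBS, 41.7 to 87.0 in WT_ASO, 104 to 255 in KO_PBS and 44.0 to 73.0 in KO_ASO. Of 10 genes known to respond to denervation, 9 were called higher in KO_PBS, with sums of 62.6 to 74.0 CPM in WT_PBS, 76.6 to 93.8 in WT_ASO, 178 to 261 in KO_PBS and 92.0 to 125 in KO_ASO. Of the 10 fibre markers, 2 were called lower in KO_PBS, beside 5.12% of all genes, and 9 had a negative log2FC. Fibroblast markers were called higher in 2 of 6 cases, and those of endothelium, adipocytes, Schwann cells, erythroid cells and neutrophils in 0 (of 4 neutrophil genes, 1 passed the filter). No marker of any list was at 0 throughout. The part of these cells and states in the autophagy results was not tested. Lysosomal genes, counted from a list of 20, were called higher in 3 cases and lower in 3, beside 7.43% and 5.12% of all genes, and their sums overlapped, with 3076 to 3225 CPM in WT_PBS and 2756 to 3558 CPM in KO_PBS.

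The second comparison asked what ASO1 did in the knockout. Map1lc3a fell, and no other gene of the 38 passed the test. That is 2.63% of the list, against 3.64% of all genes tested for a change in either direction and 2.83% for a fall. Map1lc3a was at 144, 128, 145 and 131 CPM in KO_ASO, below every KO_PBS sample and within the range of WT_PBS. The log2FC was -0.61 ± 0.10 (adjusted P value 0.0036 by edgeR), and the call held in all 23 alternative fits. Since the KO_PBS samples stand in both comparisons, the rise and the fall of Map1lc3a are not independent of each other. Without those samples, between KO_ASO and WT_PBS, its log2FC was -0.02 with a 95% confidence interval from -0.23 to 0.20. The summed macrophage and denervation markers were also lower in KO_ASO than in KO_PBS, with 9 of 14 and 5 of 10 genes called. Of 6 fibroblast markers 1 was called lower, and their sums overlapped, with 525 to 1812 CPM in KO_ASO and 1299 to 2288 CPM in KO_PBS. The part of these cells and states in the fall of Map1lc3a was not tested.

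The other genes called in KO_PBS lay on the side of WT_PBS in KO_ASO but did not pass. They were picked by the same KO_PBS samples that this comparison uses again, so some shift toward WT_PBS can follow from the selection. Gabarapl1 was at 54.9, 59.2, 43.4 and 40.7 CPM in KO_ASO (log2FC -0.39 ± 0.15 against KO_PBS, adjusted P value 0.161 by edgeR). Gabarap was at 112, 111, 101 and 105 CPM (log2FC -0.22 ± 0.08, adjusted P value 0.163 by edgeR). Nbr1 was at 118, 103, 107 and 117 CPM (log2FC -0.21 ± 0.08, adjusted P value 0.164 by edgeR). For Gabarap and Nbr1 every KO_ASO sample lay below every KO_PBS sample, whereas for Gabarapl1 the highest KO_ASO sample exceeded the lowest KO_PBS sample. Ulk2 was at 152, 163, 159.8 and 116 CPM, with 3 samples above all of KO_PBS and replicate 4 within it (log2FC 0.31 ± 0.14, adjusted P value 0.245 by edgeR). Ulk1 was at 117, 116, 102 and 73.4 CPM, with the same replicate low (log2FC 0.38 ± 0.15, adjusted P value 0.177 by edgeR). Without KO_ASO replicate 4 the log2FC of Ulk1 was 0.51 with an adjusted P value of 0.033 by edgeR, and limma-voom called it with all samples (0.0305).

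Atg7 had the lowest adjusted P value after Map1lc3a, with a log2FC of -0.35 ± 0.11 (adjusted P value 0.0914 by edgeR), and its 2 groups did not overlap. With DESeq2, with library totals as the sole scaling or with the replicate block described at the end it was called too. The remaining named genes gave no call. In KO_ASO, Map1lc3b was at 101, 99.5, 93.2 and 83.1 CPM, Sqstm1 at 574, 544, 531 and 445 CPM, Becn1 at 67.6, 74.0, 67.5 and 61.1 CPM and Tfeb at 57.8, 61.3, 65.9 and 62.6 CPM. All 4 overlapped KO_PBS. The groups did not overlap for 5 of 38 genes, beside 10.4% of all genes. Of the 38 differences 26 were positive with TMM and 14 with library totals as the sole scaling.

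**Figure D4:**
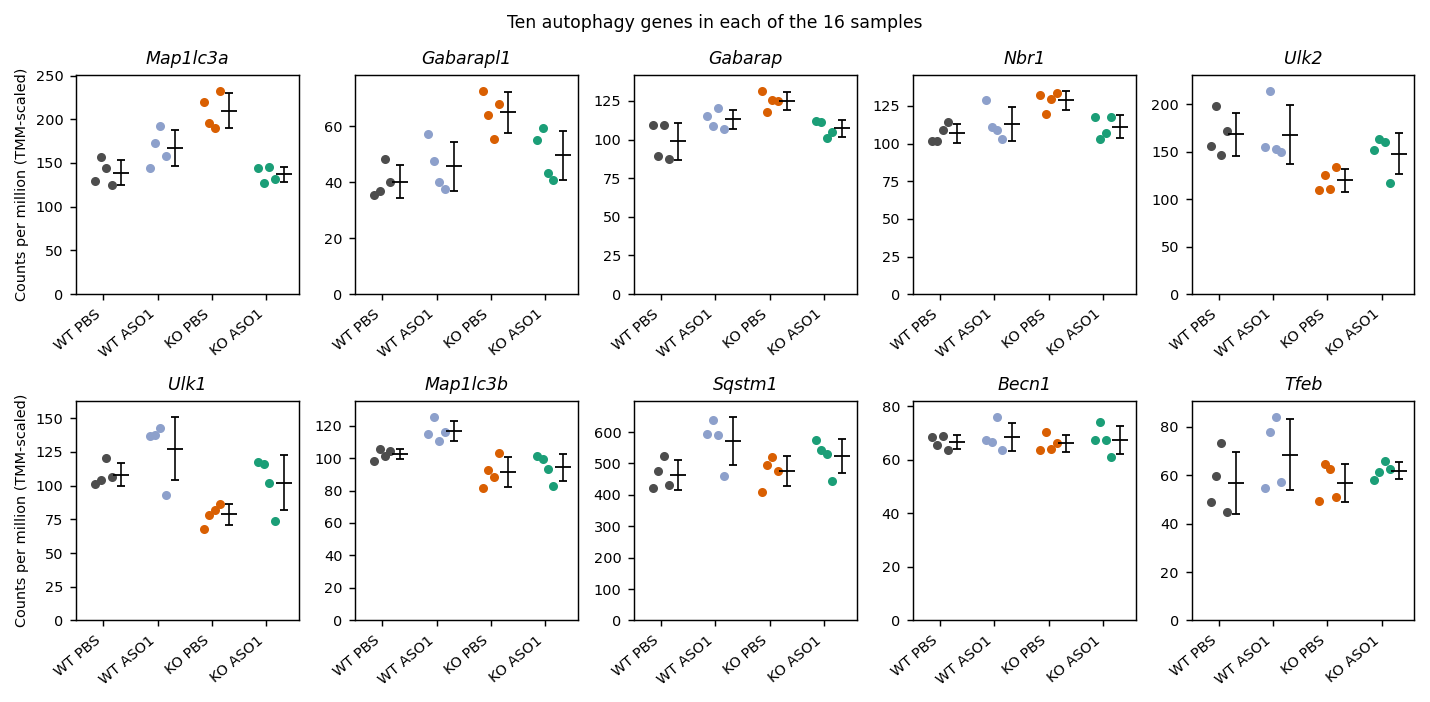
CPM, on TMM-scaled libraries, of 10 autophagy genes in each of the 16 samples. Points are samples, in order of replicate number, and the bar beside them is the mean with its SD (n = 4). Map1lc3a lies between 190.4 and 233 CPM in KO_PBS and between 128 and 145 CPM in KO_ASO, while Becn1 stays between 61.1 and 76.0 CPM in all samples.

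In wild-type muscle ASO1 changed no gene of the list by the test, 0 of 38, against 0.00668% of all genes. At an unadjusted P value under 0.05 there were 4, beside 6.45% of all genes, and DESeq2 called 0, beside 0.221% of all genes. The 4 were Map1lc3a, Map1lc3b, Gabarap and Sqstm1, each with a higher mean in WT_ASO. Map1lc3a was at 144, 173, 192 and 158 CPM in WT_ASO, above the mean of WT_PBS in every sample but overlapping it (log2FC 0.26 ± 0.10, adjusted P value 0.736 by edgeR). Sqstm1 was at 593, 639.9, 589.6 and 461 CPM (log2FC 0.30 ± 0.12, adjusted P value 0.736 by edgeR). Map1lc3b, at 115, 125, 111 and 116 CPM, did not overlap WT_PBS (log2FC 0.19 ± 0.08, adjusted P value 0.756 by edgeR). Gabarapl1 was at 57.2, 47.5, 40.1 and 37.7 CPM, Gabarap at 115, 109, 121 and 107 CPM and Nbr1 at 129, 111, 109 and 103 CPM. These 3 genes overlapped WT_PBS.

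The effect of ASO1 on Map1lc3a differed between the genotypes. The interaction, the change in the knockout minus the change in the wild type, had a log2FC of -0.88 ± 0.14 (adjusted P value 0.0117 by edgeR). It was the one call among the 38 in that test, against 0.575% of all genes, and held in each of the 22 alternative fits that could give it. The next lowest P value by edgeR was that of Gabarap, with an interaction of -0.41 ± 0.12 and an adjusted P value of 0.139, which DESeq2 called, beside 2.58% of all genes. For Ulk2 the interaction was 0.31 ± 0.19 and for Gabarapl1 -0.57 ± 0.21, with adjusted P values by edgeR of 0.551 and 0.248. The test combines a higher mean in WT_ASO than in WT_PBS with a lower one in KO_ASO than in KO_PBS, and the first of these did not pass on its own.

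Between the ASO1 groups, KO_ASO against WT_ASO, 0 of 38 genes were called by edgeR, against 0.0735% of all genes. There were 7 at an unadjusted P value under 0.05, beside 15.1% of all genes, and DESeq2 called 1, Map1lc3b, beside 2.82% of all genes. Map1lc3b was lower in each KO_ASO sample than in each WT_ASO sample (log2FC -0.31 ± 0.08, adjusted P value 0.121 by edgeR). Map1lc3a had a log2FC of -0.28 ± 0.10 there, the opposite sign to KO_PBS against WT_PBS. Between KO_ASO and WT_PBS 0 of 38 genes were called by edgeR, against 0.0401% of all genes, with 3 at an unadjusted P value under 0.05, beside 8.22% of all genes, and 0 by DESeq2, beside 0.636%. In that comparison Gabarapl1 had the highest log2FC of the list, 0.30 ± 0.15 (adjusted P value 0.624 by edgeR), with a 95% confidence interval from -0.01 to 0.61.

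Genes that stand beside the list in the pathway were counted from a second list of 60, with receptors, membrane formation, fusion with the lysosome and upstream regulators. In KO_PBS against WT_PBS, 4 of 60 were called, 2 in each direction, beside 12.6% of all genes. Prkaa1, which encodes a catalytic subunit of AMPK, the energy sensor that phosphorylates ULK1, was at 15.4, 18.3, 15.4 and 18.5 CPM in WT_PBS and 36.6, 30.7, 27.99 and 33.3 CPM in KO_PBS. Its groups lay far apart, and its rise of 1.90-fold exceeded that of every gene of the list (log2FC 0.93 ± 0.10, adjusted P value 2.6e-05 by edgeR). In KO_ASO it was at 18.3, 19.5, 19.8 and 19.8 CPM, and it fell against KO_PBS (log2FC -0.73 ± 0.10, adjusted P value 0.000965 by edgeR), the one call of 60 there, beside 3.64% of all genes. Both calls of Prkaa1 held in all 23 alternative fits. They share the KO_PBS samples and so are not independent of each other. Its interaction was -0.64 ± 0.14 with an adjusted P value of 0.0572 by edgeR. Prkaa2, which encodes the other catalytic subunit of AMPK, was in the same list and was not called in KO_PBS against WT_PBS or KO_ASO against KO_PBS. Its mean count over all samples was 8717, against 739 for Prkaa1, without correction for length. The rise of Prkaa1 therefore does not stand for both genes.

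The receptor gene Tex264, for autophagy of the endoplasmic reticulum, rose in KO_PBS (log2FC 0.31 ± 0.08, adjusted P value 0.0183 by edgeR). The Tex264 call was lost without a filter on low counts (0.0568) and when replicate 2 or 4 of WT_PBS (0.0611 and 0.0629) or replicate 2 of KO_PBS (0.0604) was left out. Vps41, of the HOPS complex that tethers membranes to the lysosome, fell with a log2FC of -0.28 ± 0.08 (adjusted P value 0.0327 by edgeR). Mlst8, a subunit of the mTOR complexes, fell with a log2FC of -0.24 ± 0.07 (adjusted P value 0.0376 by edgeR). Neither fall was called with library totals as the sole scaling, with adjusted P values by edgeR of 0.293 and 0.449, or without a filter on low counts, with 0.0766 and 0.142. The Vps41 call was also lost without any single WT_PBS replicate, 1 to 4 (0.0654, 0.0721, 0.0502 and 0.0716), and without KO_PBS replicate 1 (0.124) or 2 (0.0765). The Mlst8 call was lost in each fit without a WT_PBS or KO_PBS sample, with adjusted P values by edgeR from 0.0524 to 0.106. Of the 15 genes for fusion with the lysosome, 1 was called in KO_PBS against WT_PBS, and of 8 further genes for membrane formation, 0, beside 12.6% of all genes. In the remaining 4 comparisons 0 of 60 were called, beside 0.00668% to 0.575% of all genes.

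**Figure D5:**
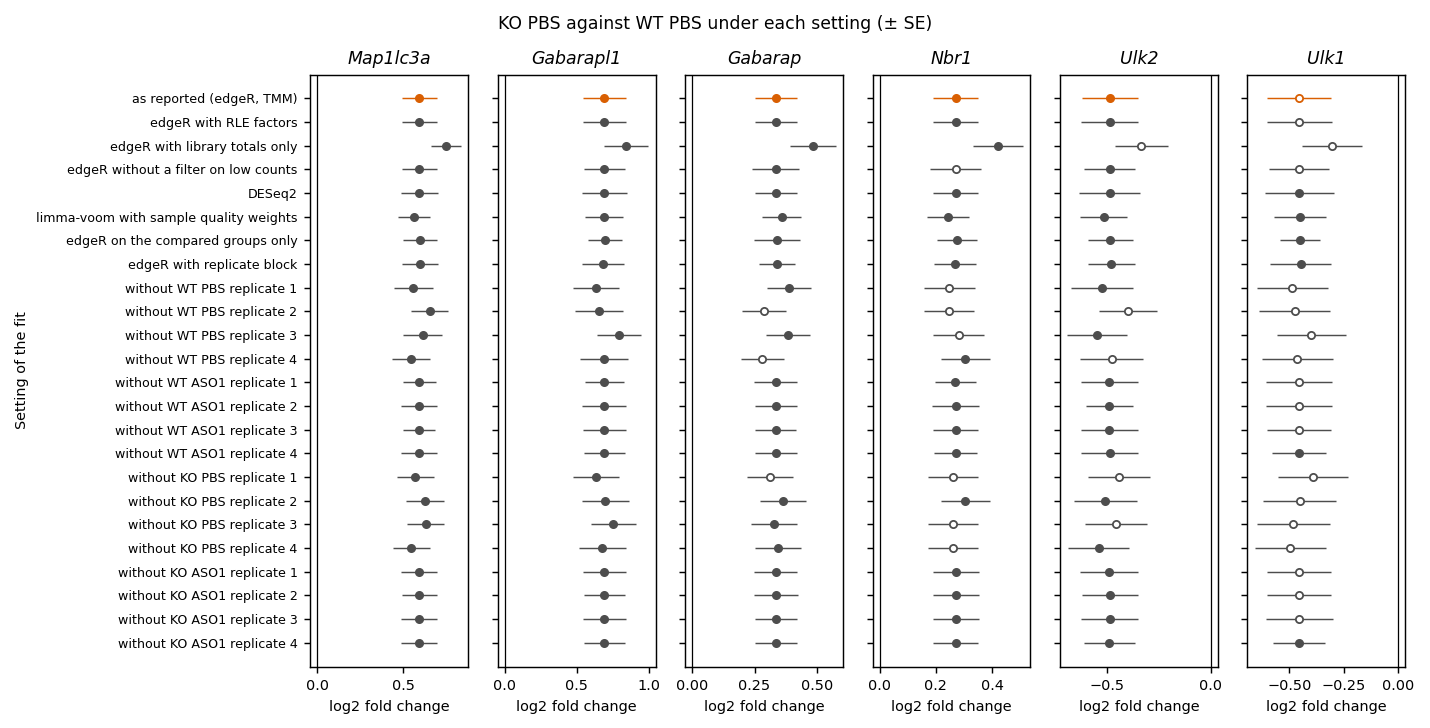
The log2FC of 6 genes in KO_PBS against WT_PBS, with its SE, as reported (orange) and under 7 other settings and 16 fits that each leave out a sample. Filled points have an adjusted P value under 0.05. Map1lc3a and Gabarapl1 are filled in every row, Gabarap, Nbr1 and Ulk2 in most, and Ulk1 in some.

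The sequences before the start sites of the list were searched for a pair of short motifs. TFEB binds an E-box with the core CACGTG, and forkhead factors of the FOXO class, known regulators of autophagy genes in wasting muscle, bind a core TGTTTA, which reads TAAACA on the other strand. Windows of 300 bases, from 250 before to 50 after the start, were taken from RefSeq for GRCm38.p6 and matched 31 of the 38 symbols. Map1lc3a, Becn1, Rb1cc1, Pik3c3, Atg12, Bnip3l and Atg16l1 were not matched and so were not searched. CACGTG, which is its own reverse complement, was present in 5 of 31, or 16.1%, against 8.09% of the 27025 genes with a window. These were Atg14, Atg3, Atg5, Atg7 and Bnip3. The forkhead core was present on either strand in 3 of 31, or 9.68%, against 15.1%, and those genes were Gabarapl1, Atg4a and Wipi2. A match of 6 letters is a description of the sequence and not a binding site. The stretches just before the gene are shown for the gene with the largest rise and the gene that fell, 5' to 3' on the strand of the gene, with the matched core in capitals. That of Gabarapl1 is chr6:129532942-129533159 on the plus strand, with 43.6% G and C, shares bases with 2 annotated exons, neither of a protein-coding gene, and holds 1 forkhead core, whose first base is 62 bases before the annotated start. That of Ulk2 is chr11:61855093-61855342 on the minus strand, with 72.8% G and C and neither core.
Gabarapl1: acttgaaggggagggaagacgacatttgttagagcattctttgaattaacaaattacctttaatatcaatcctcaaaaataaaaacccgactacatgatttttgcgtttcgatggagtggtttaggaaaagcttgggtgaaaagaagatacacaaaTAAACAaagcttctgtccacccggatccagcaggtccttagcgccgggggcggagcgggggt
Ulk2: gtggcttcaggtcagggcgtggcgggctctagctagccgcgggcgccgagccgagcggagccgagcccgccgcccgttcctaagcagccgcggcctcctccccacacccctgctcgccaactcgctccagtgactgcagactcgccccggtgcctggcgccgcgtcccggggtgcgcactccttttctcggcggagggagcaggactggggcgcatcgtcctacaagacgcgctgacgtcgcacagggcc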

How the data were processed

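RNA-seq of 16 tibialis anterior samples was analysed from the table of raw read counts per Ensembl gene that the authors deposited, without normalization. Tools named in the submitters' processing notes, without roles, were STAR 2.5.3a, HTSeq 0.6.1p1, cutadapt 1.10 and Bowtie2 2.2.8, with the build GRCm38 (mm10). The sources used here state neither the annotation release nor the strand setting. Symbols and coordinates came from GENCODE, which matched all 29730 identifiers.

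The filterByExpr function left 14960 genes and removed 14770. edgeR 4.0.16 (R 4.3.3) was used with TMM scaling and a robust quasi-likelihood fit of 1 mean per group to all 16 samples, with Benjamini-Hochberg adjustment over all genes tested in each of 6 comparisons, called at 0.05. The biological coefficient of variation was 18.7%. SE is the log2FC divided by the square root of F. Permutation tests used log2 CPM with a prior count of 2. Alternatives were RLE factors, library totals, no filter, DESeq2 1.42.0, limma 3.58.1 voom with quality weights, the compared groups alone, a replicate block and leaving out each sample. The code was tested on simulated counts. Each sample was taken as a separate mouse, which the labels do not state, so P values measure the spread between samples. The members and lists were chosen with earlier results of these data known. Genes given in every sample were those called in any comparison, up to 14, plus Sqstm1, Map1lc3a, Map1lc3b, Becn1, Ulk1 and Tfeb, and at most 4 of the 60 other genes. Atg7 and Uvrag were singled out after their values were seen. Besides the overlaps named in the text, the exons of Sqstm1, Rb1cc1, Becn1, Atg9a, Atg2b and Atg4d share bases with opposite-strand genes that averaged 10 counts or more. Those genes had 37.7% of the mean count of Atg2b, 24.05% of Atg4d, 11.1% of Atg9a and at most 2.35% for the others. Exons of Fyco1 overlap AC165425.1 on the same strand. The depth of 27591900 to 40862854 counts limits the precision of low genes most.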

Additional observations from a re-analysis of the deposited data

Results flagged for a closer look

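Each of 10 genes was looked at for a sample far from the other 3 of its group, in 40 groups of 4, of which chance alone would mark about 1 in 20. There were 2 such samples, no more than that share. Both were in wild-type mice given ASO1 and in kinases of the ULK complex, but in different replicates and opposite directions. Ulk2 was at 214 CPM in WT_ASO replicate 2, with the others at 149 to 155 CPM. Ulk1 was at 92.7 CPM in WT_ASO replicate 4, with the others at 137 to 143 CPM.

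The effect of ASO1 on Map1lc3a differed between the genotypes by the interaction test, with a log2FC of -0.88 and an adjusted P value of 0.0117 by edgeR.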

How the results depend on the processing

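Map1lc3a and Gabarapl1 in KO_PBS against WT_PBS, and Map1lc3a in KO_ASO against KO_PBS and in the interaction, kept direction and call in every fit run. The number of genes called in KO_PBS against WT_PBS, 5 as reported beside 12.6% of all genes, was 8 beside 18% with limma-voom and quality weights and 2 to 7 with a sample left out, when the share of all genes was 6.56% to 14.1%. It was 2 without WT_PBS replicate 2 (8.24% of all genes) or KO_PBS replicate 1 (6.56%) and 3 without WT_PBS replicate 4 (7.15%) or KO_PBS replicate 3 (11.2%). In KO_ASO against KO_PBS, 1 as reported beside 3.64% of all genes, it was 2 with library totals only, DESeq2 or limma-voom, beside 5.08%, 7.07% and 7.95%, and 1 to 2 with a sample left out, the 2 being without KO_ASO replicate 4 (5.47%). DESeq2 called 1 gene in KO_ASO against WT_ASO, beside 2.82%, and 2 in the interaction, beside 2.58%. The cause of these shifts was not tested.

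Genes near 0 changed sign. In KO_PBS against WT_PBS, the log2FC of Becn1 was 0.14 with library totals only and 0.0132 with limma-voom. Leaving out a sample gave -0.0419 to 0.0095 for Becn1, -0.0163 to 0.106 for Sqstm1 and -0.0936 to 0.155 for Tfeb. In KO_ASO against KO_PBS, library totals only gave -0.0505 for Map1lc3b and -0.0631 for Becn1, and leaving out a sample gave -0.0106 to 0.102 for Map1lc3b and -0.0253 to 0.0758 for Becn1. Of 482 single-gene results under alternatives, 444 kept direction and side of the threshold, 15 lost and 8 gained the call, and 15 changed sign. For a comparison of 2 groups, fits without a sample of another group kept all the samples compared, so they test the result less.

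Whether the replicate numbers pair the samples was not settled. The labels give the number no meaning, and same-numbered samples of 2 groups correlated at -0.08 to 0.44 in their deviations from the group means (24 pairs, median 0.08, against -0.03 for different numbers), so not every pair was above 0.1, while 14 of 16 samples correlated best with their own number. With the replicate block, 8 genes were called in KO_PBS against WT_PBS, beside 15.5% of all genes. Ulk1 (adjusted P value 0.0444 by edgeR), Uvrag (0.0362) and Atg4d (0.00994) came in addition. In KO_ASO against KO_PBS the block gave 2, beside 5.03% of all genes, with Atg7 (0.0435) in addition. In the interaction it gave 1, beside 0.842% of all genes. The interaction could not be fitted on the compared groups alone, since it takes all 4 groups. Genes at about 10 CPM, such as Uvrag, Atg7 and Gabarapl2, rest on fewer counts than the others named.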
